A study of Mus musculus with 16 samples.

Results

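The genes described here are the SR proteins, the hnRNPs and the subunits of the SF3A and SF3B complexes, read by hippocampal subregion and by training. They were chosen by symbol (every gene named Srsf with a number, Hnrnp, or Sf3a or Sf3b with a number, leaving out a pseudogene marked -ps). The rule found 40 of the 24972 genes in the files: 8 classical SR proteins (Srsf1 to Srsf7 and Srsf9), 3 other Srsf genes (Srsf10, Srsf11 and Srsf12), 7 hnRNPs of the A/B and D group, 4 of the F/H group, 9 other hnRNPs (C, K, L, M, R and U with their relatives), 3 SF3A and 6 SF3B subunits.

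The mice were of the ArcCreERT2::eYFPflx genotype on a C57BL/6 background and 3 to 4 months old. The Cre recombinase of this line is driven by the Arc gene, but RNA was taken from whole dissected tissue and not from labelled cells. Trained mice had learned active place avoidance, in which an unmarked zone of a rotating arena gives a foot shock. Untrained mice were placed in the same arena with the shock always off. All were returned to the arena without shock 24 h after training for a retention test, and the dorsal CA1, CA3 and dentate gyrus (DG) were microdissected 60 min later and pooled per mouse and subregion. The 3 trained mice were 2 females and 1 male, and the 3 untrained mice were 1 female and 2 males. Each trained mouse gave a library of every subregion. The 7 untrained libraries were 3 of CA1, 2 of CA3 and 2 of DG. Each value is an estimated read count per gene that the authors had normalized between libraries. The sequencing depth behind the values is therefore unknown here, and no counting interval can be given.

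Pre-mRNA splicing removes introns, and the factors described here decide where the spliceosome assembles. SR proteins bind exonic enhancers through RNA recognition motifs and recruit the spliceosome through a domain rich in arginine and serine, which is switched by phosphorylation. hnRNPs coat nascent transcripts, often act against SR proteins at nearby sites, and some also carry mRNAs along dendrites. SF3A and SF3B are parts of the U2 small nuclear ribonucleoprotein, with which the branch point of the intron is recognized. In neurons, alternative exons of receptors, channels and synaptic adhesion genes depend on these proteins. Many SR protein genes limit their own level through a "poison" exon, whose inclusion sends the transcript to nonsense-mediated decay (NMD).

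Transcripts annotated as NMD targets were counted for these genes, while poison exons themselves were not sought. In GENCODE M21, 20 of the 40 genes (50.0%) have an annotated transcript that is an NMD target, against 27.5% of 13765 expressed protein-coding genes. All 8 classical SR proteins have such a transcript, but only 1 of 6 SF3B genes and 0 of 3 SF3A genes do. A retained-intron transcript is annotated for 29 of the 40 genes (72.5%), against 56.8%. The expressed genes were not matched to the members in level or in number of annotated transcripts. The deposited values are per gene, so productive, poison-exon and retained-intron transcripts were counted together and a shift between them cannot be seen.

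The promoters of the 7 members that differed between trained and untrained mice in at least 1 comparison below are shown, since members that moved in the same libraries can be compared base by base. Each run is the 150 bases before the RefSeq transcription start, in build GRCm38.p6, 5′ to 3′ on the strand of the gene. Capitals mark 5 sequence motifs searched on both strands: the GC box GGGCGG, the CCAAT box, the ETS core CCGGAA, the CRE core TGACG and the TATA box TATAAA.
Hnrnpa1, chr15:103240247-103240396, plus strand: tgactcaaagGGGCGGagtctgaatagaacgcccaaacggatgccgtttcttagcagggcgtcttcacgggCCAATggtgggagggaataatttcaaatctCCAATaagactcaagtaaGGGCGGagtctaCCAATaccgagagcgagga
Hnrnpa0, chr13:58128557-58128706, minus strand: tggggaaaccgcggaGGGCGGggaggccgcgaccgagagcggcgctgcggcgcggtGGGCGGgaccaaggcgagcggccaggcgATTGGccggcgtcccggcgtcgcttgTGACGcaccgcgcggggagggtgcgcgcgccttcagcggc
Srsf9, chr5:115327027-115327176, plus strand: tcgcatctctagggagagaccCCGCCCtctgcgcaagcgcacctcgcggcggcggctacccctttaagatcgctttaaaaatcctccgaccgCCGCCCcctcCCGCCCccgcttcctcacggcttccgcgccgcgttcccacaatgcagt
Hnrnpa2b1, chr6:51469895-51470044, minus strand: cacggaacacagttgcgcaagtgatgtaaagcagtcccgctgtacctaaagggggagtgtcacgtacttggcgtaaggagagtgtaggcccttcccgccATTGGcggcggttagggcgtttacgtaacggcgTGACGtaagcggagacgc
Srsf6, chr2:162931358-162931507, plus strand: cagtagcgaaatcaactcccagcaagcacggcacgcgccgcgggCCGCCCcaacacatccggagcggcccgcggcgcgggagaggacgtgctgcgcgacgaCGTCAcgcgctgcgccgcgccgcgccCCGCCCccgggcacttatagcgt
Srsf11, chr3:158036607-158036756, minus strand: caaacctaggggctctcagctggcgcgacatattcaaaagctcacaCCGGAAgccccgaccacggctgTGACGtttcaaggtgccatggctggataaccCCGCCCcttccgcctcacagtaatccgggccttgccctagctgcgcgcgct
Hnrnpu, chr1:178337816-178337965, minus strand: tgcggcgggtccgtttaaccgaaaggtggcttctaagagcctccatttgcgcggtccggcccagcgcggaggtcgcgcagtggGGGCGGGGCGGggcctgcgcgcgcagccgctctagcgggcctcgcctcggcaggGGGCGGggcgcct
Hnrnpa1 has 3 CCAAT boxes and 2 GC boxes in this window, Srsf9 has 3 GC boxes and none of the other motifs, and Hnrnpa0 has 2 GC boxes, 1 CCAAT box and 1 CRE core. Srsf6, which was lower in trained mice, has 2 GC boxes and 1 CRE core, and in Hnrnpu 2 of 3 GC boxes overlap. Hnrnpa2b1 has 1 CCAAT box and 1 CRE core, and Srsf11 has 1 GC box, 1 ETS core and 1 CRE core. RefSeq promoters were found for 36 of the 40 members, and their 250 bases before the start have a median GC content of 62.6%, against 52.0% over 27025 genes of the table. A GC box is present in 27 of 36 (75%, against 32.9% of all promoters), an ETS core in 17 (47.2%, against 12.2%), a CCAAT box in 17 (47.2%, against 34.5%), a CRE core in 15 (41.7%, against 17.9%) and a TATA box in 4 (11.1%, against 13.0%). These are matches of letters and not sites shown to be bound. The set of all promoters was not limited to genes expressed here, and no set matched in GC content was compared.

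All 40 genes were measured above 0 in all 16 libraries, and all passed the filter on low values in every comparison. Together they took up 0.502% to 0.576% of the summed values of a library. To compare levels between genes, the mean value over the libraries was divided by the transcript length in kilobases. The median member had 279 per kilobase, against 62.9 for the expressed protein-coding genes. Hnrnpa3 had the highest level of the 40 genes, at 1913 per kilobase, and Hnrnpd, at 209, the lowest of the A/B and D group. Hnrnpa2b1, which carries RNA granules into dendrites, had 875 per kilobase and Hnrnpa1, an inhibitor of exon inclusion, 727. Among the other hnRNPs the range ran from 958 per kilobase for Hnrnpk, a protein binding C-rich RNA, to 80.6 for Hnrnpr. In the F/H group, whose proteins bind runs of G, Hnrnph1 was highest at 598 per kilobase and Hnrnph3 lowest at 93.7.

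Srsf5 had the highest level of the classical SR proteins, at 799 per kilobase, and Srsf4 the lowest, at 156. Srsf11 (273 per kilobase) and Srsf12 (52.4 per kilobase) were the highest and the lowest of the other Srsf genes. SF3A subunits lay close together, from 123 per kilobase for Sf3a1 to 75.5 for Sf3a2. SF3B subunits did not, although they are built into 1 complex: Sf3b2 had 462.5 per kilobase and Sf3b1, the target of splicing inhibitors, 398, while the small subunit Sf3b5 had 19.6. The level of Sf3b5 rests on an annotated transcript of 3841 bases, and a shorter true transcript would raise it.

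**Figure D1:**
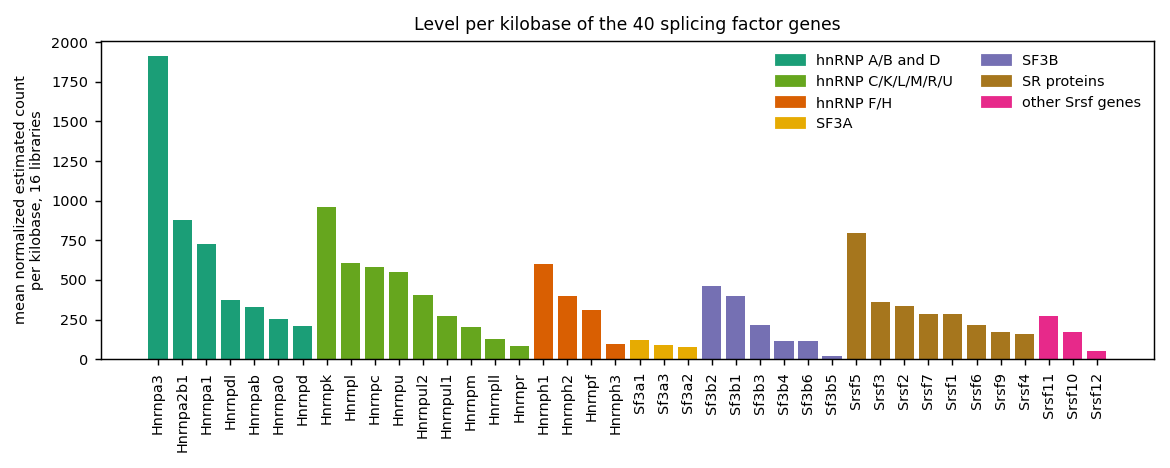
Mean normalized estimated count per kilobase of transcript over 16 libraries for each of the 40 genes (vertical axis, linear), grouped and coloured by class. Hnrnpa3 stands at 1913 and Sf3b5 at 19.6.

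The members varied little between libraries. The ratio of the highest to the lowest of the 16 values had a median of 1.31 over the members and was under 1.5 in 31 of 40. Hnrnph2 was the steadiest, from 863 to 1000.1 (a ratio of 1.16). Sf3b5, with the lowest values, varied most, from 49.5 to 119.9 (a ratio of 2.42), followed by Srsf9 (1.88) and Sf3a2 (1.80). The median SD on the log2 scale was 0.108 for the members, against 0.146 for the 9761 tested genes of mean value at least 75 and 0.191 for all 14670 tested genes. The minimum of 75 lies near the mean of the lowest member, Sf3b5 (75.4). Neither set was matched to the members in level.

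Subregion markers separated the libraries only in part, and the labels are used below as given. Markers of DG granule cells (Prox1, Dsp, C1ql2, Lct and Tdo2) summed to 6840 to 8356 in the libraries labelled CA1, 6071 to 10396 in CA3 and 7200 to 9252 in DG. The 6 CA1 neuron markers summed to 3457 to 5548 in untrained CA1 but to 1839 to 2169 in trained CA1, against 971 to 1779 in CA3 and 1460 to 2261 in DG. They thus lay higher in every CA1 library than in CA3, while trained CA1 overlapped DG. The 5 CA3 neuron markers summed to 1006 to 1716.5 in CA1, 1086 to 2223 in CA3 and 1364 to 1878 in DG, and so overlapped too. The number of genes at 0 also divided the libraries. It was 7567 to 9758 in all trained CA1, 2 trained CA3 and both untrained DG libraries, and 3124 to 5944 in the other 9. It therefore moved with training in CA1 and the opposite way in DG. Xist lay between 7601 and 19592 in the 9 trained libraries and at 10587 in CA3 of untrained mouse 1, whose CA1 and DG libraries had 26.1 and 25.5. The other untrained libraries had 28.6 to 52.4, so apart from that CA3 library Xist followed training and not the recorded sexes. Beside high Xist, the Y-linked Ddx3y was at 201 in CA3 of untrained mouse 1 and at 101, 92.9 and 255 in CA1, CA3 and DG of trained mouse 3. It was at 70.9 in CA1 of trained mouse 1 and at 1.66 to 12.9 in the other trained libraries. The part of these differences in the results below was not tested except where a fit is named, and in bulk tissue fewer cells of a type and less RNA per cell cannot be told apart.

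**Figure D2:**
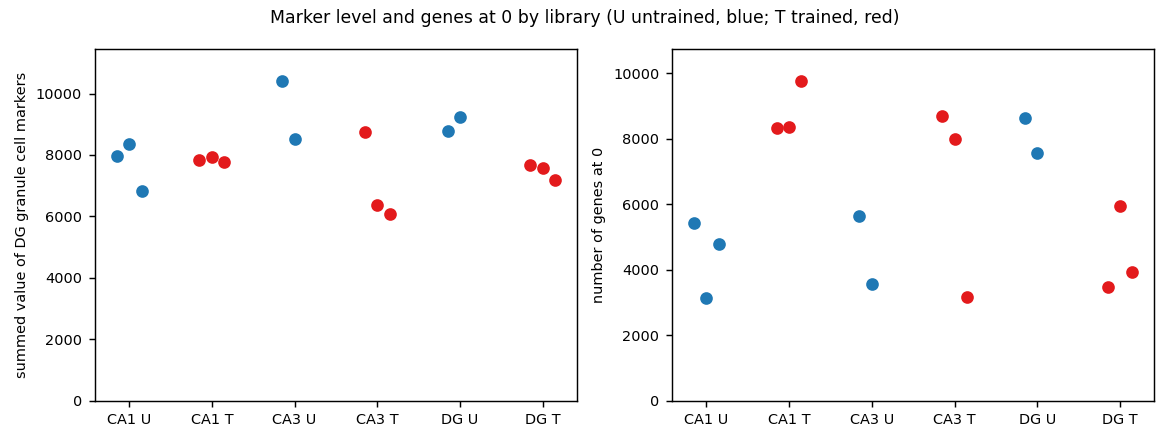
Left, summed normalized estimated count of the 5 DG granule cell markers; right, number of genes at 0, for each library by subregion (U untrained, blue; T trained, red). Marker sums of libraries labelled CA1, CA3 and DG overlap, and genes at 0 number 8323 to 9758 in trained CA1, 7567 and 8636 in untrained DG and 3479 to 5944 in trained DG.

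Training was compared within each subregion to ask which genes differ after recall of the avoidance memory. Differences were tested with limma on log2(value + 2) over all genes, with a gene called at a Benjamini-Hochberg adjusted p under 0.05. Differences below are trained minus untrained on that scale.

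In DG, 3 members were higher in trained mice and 0 were lower. The 3 of 40 compare with 242 of 13932 genes called higher (1.74%) and 231 called lower (1.66%), or 3.4% in either direction. The median difference of the members was -0.02, against 0.00 over all genes. The 3 members were Hnrnpa1, Hnrnpa0 and Srsf9.

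Hnrnpa1 lies on chromosome 15 from 103240432 to 103246692 (GRCm38). Its value was 1207 and 941 in the untrained DG libraries and 1528, 1406 and 1524 in the trained ones. The groups did not overlap, and the difference was 0.48 (standard error 0.093, limma adjusted p = 0.0163). Its reads can be shared with copies, however. 9 other annotated genes match its transcript over at least 500 bases at 95% identity or more, and 3 of them are in the files. The most abundant copy, Gm10052, had values of 284 and 590.2 in untrained DG and 174, 299 and 185 in trained DG, so it was highest in the library where Hnrnpa1 was lowest. Summed with the 3 copies, Hnrnpa1 had 1499 and 1589 in untrained DG and 1716, 1727 and 1717 in trained DG. The groups still did not overlap, but the difference fell to 0.16 (standard error 0.065, limma adjusted p = 0.196) and was no longer called. How the quantification divided these reads was not tested.

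Hnrnpa0, an A/B hnRNP encoded by a gene without introns, lies on chromosome 13 from 58125879 to 58128556 and has no such copy. Its value was 560.4 and 564 in the untrained DG libraries and 697, 735 and 758 in the trained ones. The groups were far apart compared with their spread, and the difference was 0.37 (95% interval 0.20 to 0.55, limma adjusted p = 0.0218). Srsf9, a classical SR protein, lies on chromosome 5 from 115327177 to 115333080. It had 138 and 166 in untrained DG and 207, 256 and 205 in trained DG, a difference of 0.54 (95% interval 0.24 to 0.85, limma adjusted p = 0.0497). That call lies at the threshold. It was lost with a pseudocount of 0.5 (limma adjusted p = 0.0518) and when all 16 libraries were fitted together (limma adjusted p = 0.0727). Without any one of the 3 trained DG libraries, including the one with the most Ddx3y, 0 members and 28 to 100 of all genes were called. Without untrained replicate 1 or 3 the count was 7 or 6, where 630 of 13807 and 1585 of 13841 genes were called. In the last 2 fits a single untrained library was left, which is assumed to vary as the trained ones do.

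Most classes held members on both sides of 0 in DG. Of the 7 A/B and D hnRNPs 4 were lower and 2 were called higher, of the 8 classical SR proteins 5 were lower and 1 was called higher, and all 3 SF3A genes were lower with none called. All 3 trained libraries were below both untrained ones for 13 members, and above them for 6. The share over all genes was 18.2% below and 17.4% above. Those below included Srsf1, Srsf6, Srsf11, Hnrnph1, Hnrnpu, Hnrnpul1 and Hnrnpab, at -0.27 to -0.19, of which none passed. The 95% intervals of 36 of the 40 members lay within 0.5 on the log2 scale in both directions. The widest bound was 0.97, for Sf3b5, whose value was 56.4 and 81.1 in untrained and 119.9, 89.4 and 89.8 in trained DG.

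**Figure D3:**
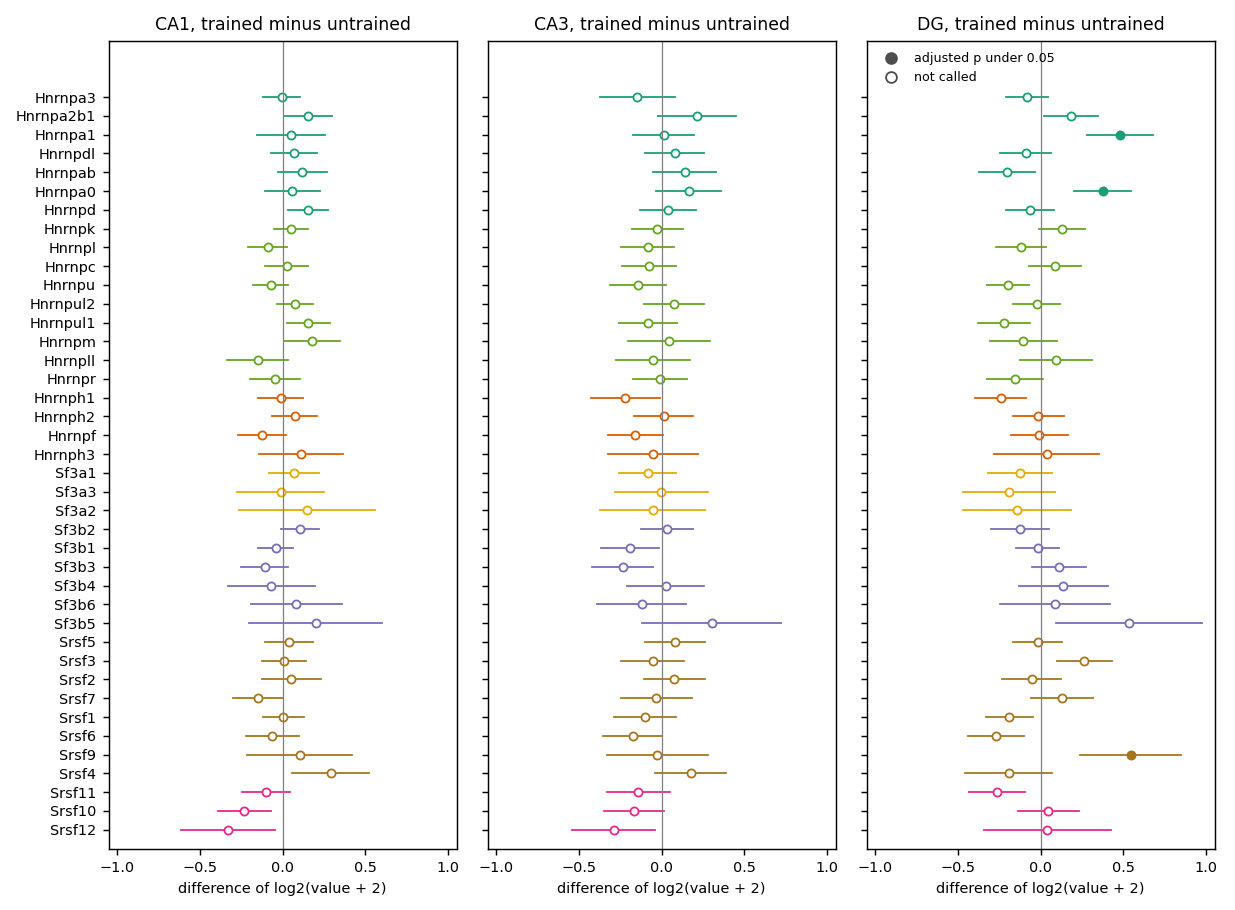
Difference of log2(value + 2) between trained and untrained mice (horizontal axis) with its 95% interval for the 40 genes in CA1, CA3 and DG, coloured by class. Filled points have a limma adjusted p under 0.05, which holds for Hnrnpa1, Hnrnpa0 and Srsf9 in DG and for none in CA1 or CA3.

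In CA1 no member was called by limma, although 710 of 13585 genes were (5.23%). An unadjusted p under 0.05 was reached by 7 of 40 members, and by 18.9% of all genes. The median difference of the members was 0.04, against 0.00 over all genes. Srsf10, which acts as a repressor of splicing when it is dephosphorylated, had the smallest p. Its value was 725, 763 and 661 in untrained CA1 and 628, 572 and 626 in trained CA1. The groups did not overlap, and the difference was -0.23 (95% interval -0.39 to -0.07, limma adjusted p = 0.0854). Hnrnpd, which binds AU-rich elements, had 1474, 1462 and 1366 in untrained and 1598, 1535 and 1641 in trained CA1 (0.15, limma adjusted p = 0.15). Srsf4 had 275, 272 and 372 in untrained and 386, 374 and 354 in trained CA1, where 1 untrained library overlapped the trained ones (0.29, limma adjusted p = 0.154). A near-identical copy, Gm12992, reached up to 19.5% of its value. Trained libraries were all below the untrained ones for 5 members (11.1% of all genes) and all above for 4 (12.9%). Without untrained replicate 3, Srsf10 and Srsf4 were called, as were 865 of 13387 genes. Beside this, all 6 CA1 neuron markers were lower in trained CA1 (3 called) while all 5 CA3 neuron markers were higher (4 called) and 4 of 6 general neuron markers were called higher. Among markers of DG granule cells, astrocytes and endothelial cells, Lct and Aqp4 were called lower and Vwf higher. The part of these markers was not tested. The intervals of 36 members lay within 0.5 in both directions, which bounds their change in CA1.

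CA3 was similar in this respect. None of the 40 members was called by limma, against 118 of 13845 genes (0.852%), and 4 had an unadjusted p under 0.05 (15.8% of all genes). The members' median difference was -0.04, against -0.01 over all genes. The genes with the smallest p were 2 subunits of SF3B and an Srsf gene. Sf3b3 had 1177 and 1047 in untrained and 999, 917 and 913 in trained CA3 (-0.24, 95% interval -0.42 to -0.05, limma adjusted p = 0.207). Sf3b1, which holds the branch point helix, had 2775 and 2555 in untrained and 2486, 2303 and 2219.5 in trained CA3 (-0.19, limma adjusted p = 0.281). Srsf12 had 175 and 193 in untrained and 145, 149.8 and 154 in trained CA3 (-0.29, limma adjusted p = 0.248). None of these pairs of groups overlapped. That held, with trained libraries below, for 10 members (16.7% of all genes), and with trained libraries above for 1, Srsf4 (17.2%). Without trained replicate 1, 1 member was called, as were 680 of 13768 genes. Choroid plexus markers moved in the same libraries, with all 4 lower and 2 called, among them Ttr at -3.29 on the log2 scale. The CA3 neuron marker Cdh24 (1.13) and the oligodendrocyte marker Olig1 (0.51) were called higher. All 5 DG granule cell markers were lower, with a median of -0.36 and 0 called. The part of these markers was not tested.

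With all 16 libraries in 1 fit and subregion as a term, 2 members were higher and 3 lower in trained mice. This is 5 of 40, against 1516 of 14670 genes in either direction (10.3%), 6.28% higher and 4.06% lower. The members' median difference was 0.01, against -0.01 over all genes. The fit treats libraries of 1 mouse as independent. With the mouse as a block, 5 members were again called. The block takes the mouse from the title numbers, and Xist in CA3 of untrained mouse 1 goes against that number. This fit therefore cannot settle whether libraries of 1 mouse are independent.

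Hnrnpa2b1 (chromosome 6, 51460932 to 51469894) and Hnrnpa0 rose, by 0.18 (standard error 0.052, limma adjusted p = 0.0259) and 0.19 (0.055, limma adjusted p = 0.030). Hnrnpa2b1 had 1541, 1534 and 1372 in untrained CA1 and 1811, 1558 and 1586 in trained CA1. In CA3 it had 1206 and 1388 against 1716, 1426 and 1382, and in DG 1194 and 1234 against 1505, 1359 and 1282. The trained libraries were all above the untrained ones in CA1 and DG and overlapped them in CA3. Among the single subregions Hnrnpa0 was called in DG alone, but no difference of its training effect between subregions was called. Its values overlapped in CA1, with 765, 649 and 698 in untrained and 749, 668 and 783 in trained libraries. In CA3 it had 573 and 659 against 705, 706 and 655.

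Srsf11 (chromosome 3, 158010473 to 158036639), Hnrnpu (chromosome 1, 178321108 to 178337797) and Srsf6 (chromosome 2, 162931528 to 162937121) fell. The fall of Srsf11, which in neurons takes part in the choice of microexons, was -0.16 (standard error 0.046, limma adjusted p = 0.0247). It had 931, 959.6 and 877 in untrained and 827, 926 and 825 in trained CA1. In CA3 the values were 939 and 852 against 865, 816 and 757, and in DG 857 and 920.3 against 775, 712 and 732. Only in DG did the groups not overlap.

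Hnrnpu, a nuclear scaffold protein that also binds chromatin, differed by -0.13 (standard error 0.039, limma adjusted p = 0.0283). Its values were 4425, 4672 and 4135 in untrained and 4351, 4122 and 4099 in trained CA1. In CA3 they were 4569.8 and 4257 against 4241, 3883 and 3864, and in DG 4328 and 4732 against 4009, 4043 and 3790.0. Srsf6 differed by -0.16 (standard error 0.049, limma adjusted p = 0.0363). It had 861, 822 and 727 in untrained and 778, 712 and 815 in trained CA1. CA3 had 798 and 779 against 723, 719.9 and 655, and DG 845 and 822 against 679.9, 731 and 661. Both genes overlapped in CA1 and had all trained libraries below in CA3 and DG.

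The 5 calls changed in number with single libraries. Without the CA3 library of untrained mouse 1, whose Xist goes against the other libraries of that mouse, 0 members and 1000 of 14629 genes were called, and without DG of trained mouse 3 the counts were 3 and 1410 of 14642. With a score of Y-linked genes minus Xist as a covariate, 0 of the 40 and 0 of all genes were called. That score nearly separates the training groups, so the fit says nothing about the members, and sex-linked differences and training cannot be told apart here. Cell type markers moved in the same fit. Of the CA3 neuron markers 4 of 5 were called higher, of the general neuron markers 2 of 6, and Olig1 and Vwf were called higher too, while 2 of 5 astrocyte markers and Lct were called lower. With the summed CA1 neuron markers as a covariate the difference of Hnrnpa2b1 was 0.15 in place of 0.18 and was not called (limma adjusted p = 0.0731), while 5 members were called in all, and the part of the other markers was not tested.

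**Figure D4:**
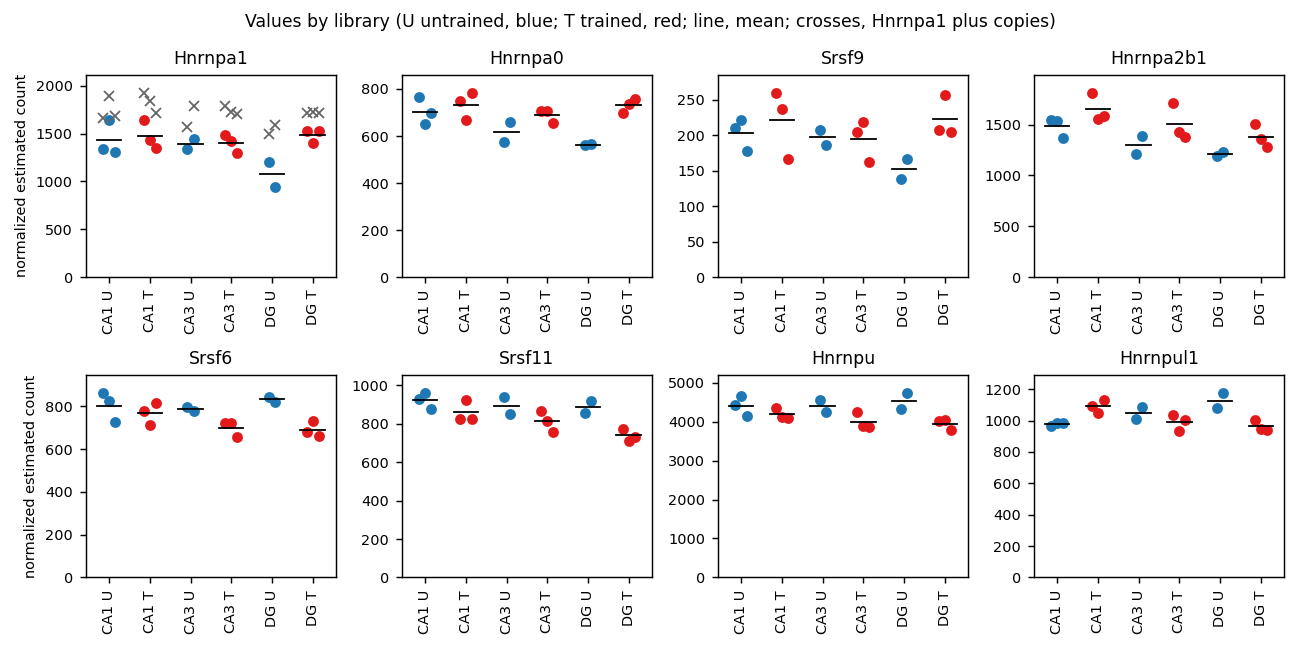
Normalized estimated count (vertical axis, from 0) of 8 genes in each library by subregion and training (U untrained, blue; T trained, red; line, group mean); crosses give Hnrnpa1 summed with its near-identical copies. In untrained DG, Hnrnpa1 is at 1207 and 941, but its sum with the copies is at 1499 and 1589, near the other libraries.

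The training effects were then compared between subregions, as interactions in 1 fit of 6 groups. Between CA1 and DG, 1 of 40 members differed, against 404 of 14670 genes (2.75%). It was Hnrnpul1 (chromosome 7, 25721165 to 25754757), an hnRNP U relative. It had 963, 986 and 986 in untrained and 1091, 1051 and 1128 in trained CA1, but 1077 and 1174 in untrained and 1003, 949 and 941 in trained DG. It was thus higher in all trained CA1 libraries and lower in all trained DG libraries, with a difference of effects of 0.38 (95% interval 0.18 to 0.58, limma adjusted p = 0.0343). The call was lost without any 1 of the mice (limma adjusted p = 0.0649 to 0.137) and after upper-quartile rescaling (limma adjusted p = 0.0516). The number of genes at 0 was also higher in trained CA1 and in untrained DG. In CA3 it was higher in 2 of 3 trained libraries, where Hnrnpul1 had 1036, 931 and 1004 against 1011 and 1086 in untrained CA3 and the groups overlapped. The part of that number was not tested. The next members, Hnrnpab (0.33, limma adjusted p = 0.106) and Hnrnpa1 (-0.43, limma adjusted p = 0.117), did not pass.

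No member differed by limma between the effects in CA1 and CA3 (0.0273% of all genes), where 1 had an unadjusted p under 0.05 (6.71% of all genes). The smallest p belonged to Hnrnpul1 (0.24, limma adjusted p = 0.619), Hnrnph1 and Sf3b1. Nor was any called between CA3 and DG (0.130% of all genes). There 5 had an unadjusted p under 0.05 (11.7% of all genes), led by Sf3b3 (-0.35, limma adjusted p = 0.221), Hnrnpab (0.34, limma adjusted p = 0.241) and Hnrnpa1 (-0.47, limma adjusted p = 0.241). The 95% interval of these differences reached to either side by a median of 0.22 between CA1 and the other subregions and 0.24 between CA3 and DG.

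Levels were close between the subregions as labelled. With training as a term, Hnrnpa2b1 was higher in CA1 than in DG by 0.27 (95% interval 0.14 to 0.40, limma adjusted p = 0.0235), the only call among the 40, against 286 of 14670 genes (1.95%). In CA1 it lay between 1372 and 1811 and in DG between 1194 and 1505, so the ranges overlapped. The call was lost without untrained mouse 1 or 2 or trained mouse 2 or 3 (limma adjusted p = 0.0556 to 0.0895). Against CA3, no member of CA1 was called by limma (0.211% of all genes), with 4 at an unadjusted p under 0.05 (8.72% of all genes). Sf3b4 was the first of these (-0.26, limma adjusted p = 0.248). Between CA3 and DG, 0 of 40 members and 0 of 14670 genes (0%) were called by limma, with 1 member, Hnrnpdl, and 4.87% of all genes at an unadjusted p under 0.05. All 40 intervals lay within 0.5 on the log2 scale for CA1 against CA3 and for CA3 against DG. The DG and CA3 neuron markers overlapped between the labels, as given above. The 6 CA1 markers were higher in CA1 than in CA3 by a median of 1.23 on the log2 scale, but 0 of them were called.

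SR proteins work with kinases, with SR-related proteins that carry the same arginine and serine repeats, and with the small nuclear ribonucleoproteins. Lists of these partners were counted in the same fits. In DG, SR-related proteins were lower in trained mice in 22 of 24 genes, and 7 were called lower and 0 higher. Over all genes tested in DG, 49.9% were lower, 1.66% were called lower and 1.74% called higher. Their median difference was -0.21, against -0.04 for the classical SR proteins. Srrm1 and Acin1, both found with the exon junction complex, fell by 0.62 (limma adjusted p = 0.000675) and by 0.44 (limma adjusted p = 0.010). Pnisr fell by 0.50 (limma adjusted p = 0.00143). The other 4 were Srrm2, a core of nuclear speckles, Pnn, Luc7l2 and Luc7l3. Without any one trained DG library, 2 or 3 of the 24 were called lower, in fits that called 28 to 100 of all genes in either direction.

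The same list was lower in trained mice in 13 of 24 genes in CA1, 21 in CA3 (median -0.07) and 20 in the combined fit (median -0.10), against 49.9%, 51.1% and 52.2% of all genes. It had 0 calls in CA1, 1 in CA3 (Scaf1, higher) and 5 lower and 1 higher in the combined fit. The lower ones there were Srrm1, Acin1, Rsrc1, Scaf8 and Scaf11, and Scaf1 was higher. The shares over all genes were 5.23% called in CA1 and 0.852% in CA3, and 4.06% lower and 6.28% higher in the combined fit. With each mouse left out in turn, 0 to 3 were called lower in that fit, where 456 to 1872 of all genes were called. In the difference of effects between CA1 and DG, 4 of the 24 were called, all with the effect higher in CA1, against 2.75% of all genes in either direction. They were Srrm1, Pnn, Pnisr and Luc7l2, and were named after their values were seen. As for Hnrnpul1, the number of genes at 0 moved with training in opposite directions in CA1 and DG.

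The counts of the other lists are to be read against the same shares of all genes, 3.4% called in DG and 10.3% in the combined fit. Of 11 tested kinases, phosphatase and import genes, 1 was called in DG. It was Clk2, a kinase that phosphorylates SR proteins in the nucleus, which fell by 0.71 (limma adjusted p = 0.0268). In the combined fit Clk3 fell by 0.29 (limma adjusted p = 0.00566) and Clk1 by 0.20 (limma adjusted p = 0.0152). U2surp and Rbm5 fell in DG among 21 genes of the U2 particle and 3′ splice site, by 0.28 and by 0.30. In U1 and the tri-snRNP, 1 of 24 fell and 1 rose in DG: Snrnp70, the U1 protein that SR proteins contact, fell by 0.48 (limma adjusted p = 0.00227), and Snrpd2, an Sm core protein, rose by 0.55 (limma adjusted p = 0.0157). In the difference of effects between CA1 and DG, 1 of these 24 was called with the effect higher in CA1 and 1 with it lower. The share over all genes there was 2.75%. Snrpb, another Sm protein, rose by 0.48 and Prpf3 fell by 0.21 in the combined fit, where U2surp and Rbm5 fell too. Among other proteins of hnRNP complexes 0 of 21 were called in DG. In the combined fit Ptbp3 and Ewsr1 fell, by 0.25 and by 0.14, and Cirbp rose by 0.20 (limma adjusted p = 0.0491). In CA1 and CA3, 0 genes of these lists were called apart from Scaf1.

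Cell type markers also differed in DG. Of the markers of granule cells, the principal neurons of the DG, 4 of 5 were lower with a median of -0.24, and Prox1 was called (it fell by 0.31, limma adjusted p = 0.00969). Among endothelial markers Flt1 fell by 0.94 (limma adjusted p = 0.00143). No gene of the other 7 marker lists was called in DG, although all 5 CA3 neuron markers were higher in trained mice (median 0.32). The part of all these markers in the differences of the splicing genes was not tested.

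**Figure D5:**
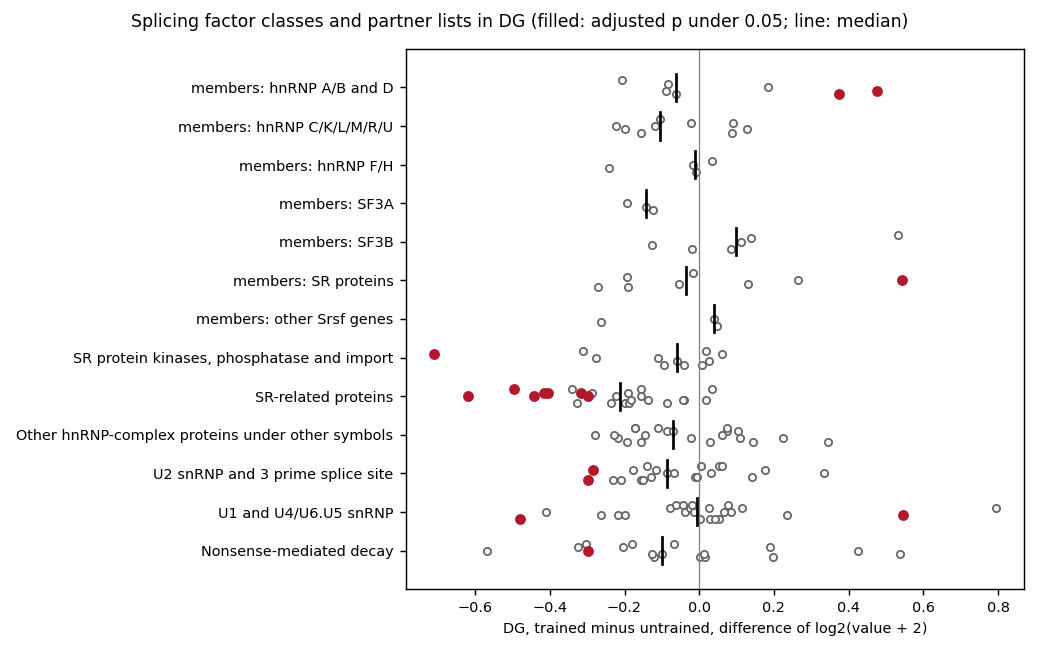
Difference of log2(value + 2) between trained and untrained DG (horizontal axis) for each gene of the 7 member classes and the 6 partner lists; filled points have a limma adjusted p under 0.05 and vertical lines mark medians. SR-related proteins lie mostly below 0 (median -0.21), with 7 called lower.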

How the data were processed

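RNA-seq of microdissected CA1, CA3 and DG was analysed in 16 libraries, 9 from trained and 7 from untrained mice; the authors had excluded an untrained library each of CA3 and DG. Libraries were made after rRNA depletion, although the label of the molecule reads polyA RNA. STAR alignment and Salmon quantification by the authors gave the deposited signal, an estimated count normalized between libraries in a way not given in the sources used here. Per the labels the build is GRCm38, with bcl2fastq 2.20, FastQC, Trim Galore and DESeq2. The values are not whole reads, so no count test was run.

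limma 3.58.1 in R 4.3.3 was fitted to log2(value + 2) with trend and robust estimation, and p-values were adjusted over all genes tested. Genes needed a value of at least 10 in as many libraries as the smallest group holds. Single-subregion fits used only that subregion. Interactions used 6 groups. 4 rows with symbols turned into dates were left out. Lengths are the median of principal transcripts in GENCODE M21, where 24464 symbols (98.0%) were found. Copies were sought with megablast. The fits were tested on simulated data. A result of the partner lists is not reported here.

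The members, lists and tests were chosen with earlier results of these data known. Named were members with an adjusted p under 0.05 (otherwise the 3 with the smallest p), the highest and lowest member per class, and up to 3 genes per list in DG and the combined fit. Others, named after their values were seen, are the further members listed by direction and the remaining called genes of the lists. Libraries of 1 mouse share a number in the titles. Their deviations from the group means were hardly related, with correlations of -0.108 to 0.092, and a number shared by a trained and an untrained mouse marks no shared animal. p-values of the single-subregion fits cover the spread between mice in these libraries. Those of the fits over all libraries cover the spread between libraries, taken as independent.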

Additional observations from a re-analysis of the deposited data

Results flagged for a closer look

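The training effect on Hnrnpul1 differed between CA1 and DG by 0.38 on the log2 scale, by the interaction test of the 6-group limma fit (adjusted p = 0.0343). The gene was higher in 3 of 3 trained CA1 libraries and lower in 3 of 3 trained DG libraries. It was no longer called after upper-quartile rescaling (adjusted p = 0.0516) or with any 1 mouse left out. Groups held 2 or 3 libraries, so single outlying samples could not be sought.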

How the results depend on the processing

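No result changed its direction, apart from medians of members near 0. The number of members called was within 1.5 times of its value under 124 of 154 alternatives. That figure pools all comparisons, including those with 0 members called, where a count that stayed at 0 was taken as unchanged. It therefore does not measure how stable the calls were. With each mouse left out, it ranged from 0 to 2 in CA1, from 0 to 1 in CA3, from 0 to 7 in DG, from 0 to 6 in the combined fit and from 0 to 2 between CA1 and DG, and was 0 throughout for the CA1 minus DG effect, which upper-quartile rescaling also took to 0. In CA3 and DG, leaving out an untrained mouse left 1 untrained library, assumed to vary like the trained ones. The counts of 7 and 6 in DG come from such fits, and without a trained mouse the count was 0. In the combined fit it was 3 with no filter on low values, 8 with a term for the number of genes at 0, 0 with the sex-linked covariate (which nearly separates the groups and left 0 of all genes called), 3 without the DG library of trained replicate 3 and 0 without the CA3 library of untrained replicate 1. The last 2 were added after the data were seen, as were the covariate of CA1 neuron markers and the sums with near-identical copies, which took Hnrnpa1 in DG to 0.16 (limma adjusted p = 0.196). For named genes, 2 of 374 values crossed to called and 64 lost their call.

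With the replicate block, 2 members were called in DG, 5 in the combined fit and 1 each for CA1 against DG and the CA1 minus DG effect. The call lost was that of Srsf9 in DG, where the number is only a number. The consensus correlation within mice, as numbered in the titles, was -0.035 in the combined fit. The depth was unknown. The 95% intervals of members reached to either side by a median of 0.147 for training in CA1, 0.170 for DG and 0.187 for CA3, which limits what changes could be seen.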
